A study of Homo sapiens with 6 samples.

Results

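Transcripts of 8 ER-phagy receptors, proteins that mark pieces of the endoplasmic reticulum (ER) for destruction, were followed in cells with and without a VCP inhibitor: FAM134A, FAM134B and FAM134C (now named RETREG2, RETREG1 and RETREG3), CCPG1, RTN3, TEX264, ATL3 and CALCOCO1. They were taken by symbol from the 57820 annotated genes of the deposited table, and each symbol stood on 1 row. The cells were U2OS, a human osteosarcoma line with no engineered allele in the labels, grown for 4 h with 0.05% DMSO (3 libraries) or with 5 µM NMS-873 dissolved in DMSO (3 libraries). VCP (p97), the target that NMS-873 inhibits, is the ATPase that pulls ubiquitylated proteins out of the ER membrane, and the comparison asked how transcripts respond when it is blocked. Stranded libraries of mRNA were sequenced, and the libraries held 21132311 to 22488952 reads in genes. Nothing in the labels ties the replicates to separate cultures. The p-values therefore measure the spread between these 6 samples only, and that spread may be technical. In limma, the test used here, each gene's spread was taken largely from a trend over all genes. In these bulk samples fewer cells and less RNA per cell cannot be told apart. Added spike-in RNA took 0.3751%, 0.3857% and 0.3585% of the counted reads in DMSO replicates 1 to 3. In NMS-873 replicates 1 to 3 it took 0.3821%, 0.3719% and 0.3665%, so these ranges overlapped.

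ER-phagy is the delivery of ER to the lysosome by autophagy. Each receptor carries a short motif that binds ATG8 proteins (LC3 and GABARAP), which coat the growing autophagosome membrane, and most are anchored in the ER membrane themselves. Receptors differ in the ER they serve: the FAM134 proteins are curved into the ER membrane by a reticulon-type hairpin, RTN3 and ATL3 sit in ER tubules, TEX264 and CCPG1 cross the membrane, and CALCOCO1 is soluble and reaches the ER through VAP proteins. CCPG1 is known in other cells as a receptor whose transcript rises with the unfolded protein response.

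The labelled cell type was checked against 8 markers of mesenchymal and bone tumour cells and 7 of other lineages. FPKM, a level per length, are here fragments scaled to the gene's exonic length and to a library factor from the spike-in RNA. The mesenchymal markers summed to 1246 to 1279 FPKM per DMSO library and 1118 to 1167 FPKM per NMS-873 library. SPARC, VIM, COL1A1 and FN1 were high and COL1A2 was near 0. The other lineages' markers summed to 1.53 to 1.95 FPKM with DMSO and 1.45 to 1.87 FPKM with NMS-873, and ALB and MYOG among them had no read. Of 7 mesenchymal markers tested 0 were called higher and 4 lower in limma (also 0 and 4 at an unadjusted p under 0.05). Of all genes tested 14.9% were called higher and 33.0% lower. The part of these markers in the receptors' values was not tested. The stress response of the ER was plain in the same libraries: HSPA5, which encodes the ER chaperone BiP, was 6.78-fold higher with NMS-873, and DDIT3, which encodes the stress factor CHOP, was 34.4-fold higher.

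None of the 8 receptors rose with NMS-873, and 3 fell: TEX264 by 1.34-fold, FAM134A by 1.13-fold and ATL3 by 1.1-fold. All 8 passed the minimum mean of 10 normalised counts (reads divided by the size factor of the library) and were tested with limma across 14889 genes. In the same test 14.9% of all genes were called higher and 33.0% lower at an adjusted p under 0.05, so the 3 of 8 called lower are near the background share. The median log2 difference of the 8 was -0.12, beside -0.10 over all genes tested. At an unadjusted p under 0.05 in limma 0 were higher and 4 lower, and the share of all genes at that threshold is not given here. With voom on rebuilt reads 0 were called higher and 3 lower, beside 14.9% and 33.0% of all genes. The deposited values are scaled to spike-in RNA; scaled to the genes instead, the median gene moved to 0.00 and the only receptor still called was TEX264, against background shares of 25.3% higher and 20.8% lower. With TMM factors, a trimmed mean over genes, the count was also 0 higher and 1 lower, against 26.3% and 19.8%. Scaled to equal totals of reads in genes, the median gene was at -0.10, as on the spike-in scale. The count was then 0 higher and 4 lower, against 16.6% and 35.7%.

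The stretch before the transcription start is shown for FAM134A, the member with matches, and for TEX264 and CCPG1, the receptor with the largest difference and the one known as a stress target, to let the letters be compared. The sequences are RefSeq's 250 bases up to the first listed start, build GRCh38.p14, written 5′ to 3′ on the gene's strand, at chr2:219178025-219178274 (plus strand) for FAM134A, chr3:51671002-51671251 (plus strand) for TEX264 and chr15:55408360-55408609 (minus strand) for CCPG1. Capitals mark matches to the motifs described after them.
FAM134A: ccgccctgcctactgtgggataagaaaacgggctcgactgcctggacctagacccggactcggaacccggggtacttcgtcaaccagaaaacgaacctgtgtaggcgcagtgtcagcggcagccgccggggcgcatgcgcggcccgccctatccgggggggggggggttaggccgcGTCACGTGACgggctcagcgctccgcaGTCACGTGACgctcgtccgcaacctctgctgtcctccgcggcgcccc
TEX264: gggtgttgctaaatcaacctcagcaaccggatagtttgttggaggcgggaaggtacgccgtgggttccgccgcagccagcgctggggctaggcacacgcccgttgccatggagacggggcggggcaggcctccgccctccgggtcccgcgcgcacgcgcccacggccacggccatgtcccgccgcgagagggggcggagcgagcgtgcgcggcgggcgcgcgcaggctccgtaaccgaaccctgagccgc
CCPG1: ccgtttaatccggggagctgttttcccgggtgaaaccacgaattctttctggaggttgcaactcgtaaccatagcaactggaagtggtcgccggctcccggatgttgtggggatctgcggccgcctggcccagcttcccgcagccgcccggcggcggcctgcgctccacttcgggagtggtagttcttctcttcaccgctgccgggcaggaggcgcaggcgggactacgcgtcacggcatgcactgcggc
The capitals in the FAM134A stretch are 2 copies of the CLEAR element, the E-box CACGTG with GT before it and AC after it, which TFEB and TFE3, the transcription factors of lysosome and autophagy genes, are known to bind. They begin 74 and 47 bases before the start. Promoters were available for 7 receptors (10 entries; CALCOCO1 had none) and were searched on both strands. Besides the CLEAR element, the search covered CARE (TGATGNAA, bound by ATF4 and C/EBP factors), ERSE (CCAAT, any 9 bases, CCACG) and ERSE-II (ATTGG, any base, CCACG) of the unfolded protein response, UPRE (TGACGTGG), CRE (TGACGTCA) and the E-box alone, which overlaps the CLEAR element. No match outside those 2 sites was found in the 10 entries, and no match says only that these letters are not in this window. Of all 35116 promoters of this length, 0.308% held the CLEAR element, 6.35% the E-box, 3.14% CARE, 1.65% CRE, 0.612% UPRE, 0.074% ERSE and 0.051% ERSE-II. Among 75 tested genes with a CLEAR element 20% were called higher and 29.3% lower, beside 16.4% and 32.8% of the 9990 tested genes with a promoter in the table.

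TEX264 showed the largest difference of the 8. It encodes a single-pass ER membrane protein that is a major receptor when cells are starved. Its level was 428, 429 and 460.4 normalised counts in DMSO replicates 1 to 3 and 306, 322 and 359 in NMS-873 replicates 1 to 3. Every NMS-873 library was below every DMSO library, which held for 4 of the 8 receptors and for 37.2% of all genes tested; 0 of the 8 lay wholly above, against 16.4% of all genes. The log2 difference was -0.42 (SE 0.0774, 95% interval -0.57 to -0.27, adjusted p = 1.07e-06 in limma), and scaled to the genes it was -0.31 (adjusted p = 2.81e-04). The gene lies on chromosome 3, 51696709 to 51738339 (plus strand; hg19, as for the gene positions that follow), and its first part overlaps the end of RAD54L2 on the same strand. In GENCODE 29 the shared exonic stretch is 184 of 5688 bases, or 3.23%, and RAD54L2, a gene for a SWI/SNF-type helicase, was itself at a log2 difference of 0.04 (adjusted p = 0.566 in limma).

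Of the 3 FAM134 genes only FAM134A was called. FAM134A (chromosome 2, 220040947 to 220050201, plus strand) was at 1892, 1901 and 1964 normalised counts with DMSO and at 1683, 1625 and 1772 with NMS-873. Its groups did not overlap, and the log2 difference was -0.18 (SE 0.0555, adjusted p = 0.00385 in limma). Without NMS-873 replicate 2 it was -0.15 (adjusted p = 0.0571), and scaled to the genes -0.08 (adjusted p = 0.106). FAM134C (chromosome 17, 40731531 to 40762641, minus strand) was at 681, 659 and 663 normalised counts with DMSO and at 651, 614 and 687 with NMS-873. The highest library of FAM134C was one with NMS-873, and the lowest was too. Its log2 difference of -0.04 (95% interval -0.17 to 0.09, adjusted p = 0.65 in limma) did not pass, and with gene-based factors it was 0.07. Within each library the FPKM of FAM134A was 2.51 to 2.68 times that of FAM134C with DMSO and 2.33 to 2.39 times with NMS-873, a ratio that no scaling of the libraries changes and that was chosen after the values were seen.

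FAM134A and FAM134C each overlap a gene on the opposite strand at one end, CNPPD1 (291 exonic bases in GENCODE 29) and TUBG1 (139 bases), and the strand setting of the counting was not stated. CNPPD1 was at a log2 difference of 0.05 (adjusted p = 0.555 in limma), and TUBG1, which encodes gamma-tubulin, fell by 0.14 on the log2 scale (adjusted p = 0.0238 in limma).

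FAM134B, a receptor of ER sheets and the first FAM134 protein described as one, had few reads in these cells. It lies on chromosome 5, 16473147 to 16617167 (minus strand), and had 16, 13 and 14 reads with DMSO and 9, 18 and 15 with NMS-873. The NMS-873 libraries held both the lowest and the highest value. The log2 difference was -0.06, and the 95% interval ran from -0.67 to 0.56, so a change as large as that of TEX264 was not detectable at this depth. The reads of a gene are summed over its transcripts here, so the long and short forms of FAM134B, and those of RTN3, are not separated.

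RTN3 and ATL3 are neighbours on chromosome 11, head to head on opposite strands. RTN3 (63448918 to 63527363, plus strand), whose long form is the receptor of ER tubules, was at 3268, 3178 and 3309 normalised counts with DMSO and at 2874, 3000.1 and 3139 with NMS-873. All 3 NMS-873 libraries were below the DMSO libraries, yet the difference did not pass the test (log2 difference -0.11, 95% interval -0.22 to -0.01, adjusted p = 0.0669 in limma). Without NMS-873 replicate 3 it was -0.15 (adjusted p = 0.0378 in limma). With any other single library left out it was -0.13 to -0.08 and did not pass (adjusted p = 0.0697 to 0.201 in limma). Scaled to the genes it was -0.011 (adjusted p = 0.822 in limma). ATL3 (63391559 to 63439393, minus strand), a GTPase that fuses ER tubules and binds GABARAP, was at 2143, 2066 and 2104 normalised counts with DMSO and at 1868, 1949.9 and 1921 with NMS-873. Its groups did not overlap either, and the log2 difference was -0.14 (SE 0.0548, adjusted p = 0.029 in limma). The ATL3 call was lost when any library other than DMSO replicate 2 was left out (adjusted p = 0.0505 to 0.131), and scaled to the genes the difference was -0.03 (adjusted p = 0.483). Within each library RTN3 stood at 2.00 to 2.06 times the FPKM of ATL3 with DMSO and at 2.02 to 2.14 times with NMS-873, so these ranges overlapped.

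CALCOCO1 (chromosome 12, 54104903 to 54121529, minus strand) was at 451, 423 and 449 normalised counts with DMSO and at 420.03, 374 and 425 with NMS-873. NMS-873 replicate 3 lay above DMSO replicate 2, so the groups overlapped, and the log2 difference of -0.12 (95% interval -0.27 to 0.03, adjusted p = 0.179 in limma) did not pass. It was -0.06 without NMS-873 replicate 2, and -0.016 scaled to the genes.

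CCPG1 was at 81.2, 63.7 and 53.6 normalised counts with DMSO and at 62.2, 66.6 and 61.0 with NMS-873. All NMS-873 libraries lay within the range of the DMSO libraries. The log2 difference was -0.04 (95% interval -0.35 to 0.26, adjusted p = 0.832 in limma), and it was 0.11 without DMSO replicate 1. This level is uncertain and may understate the transcript. CCPG1 (chromosome 15, 55632230 to 55700708, minus strand) shares exons on the same strand with the read-through gene DYX1C1-CCPG1 (55647446 to 55790558), which had 0 reads in all 6 libraries. In GENCODE 29, whose exonic length for CCPG1 equals the one in the table (8790 bases), 3405 bases belong to both genes, and 5 of the 10 protein-coding CCPG1 transcripts share over 90% of their bases with it. Counting programs commonly leave out reads that fall on 2 genes; the setting used here was not stated, and its part in the low level was not tested.

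**Figure D1:**
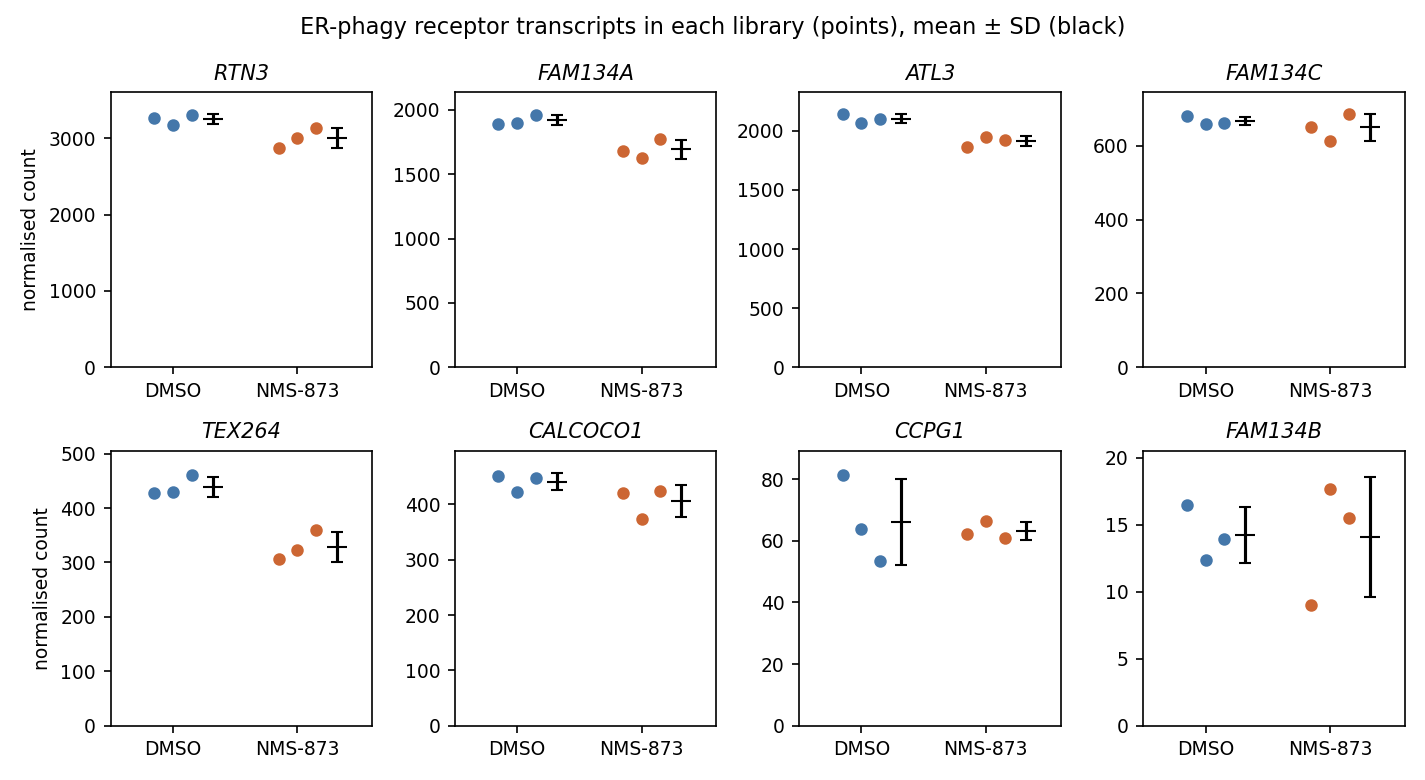
Normalised counts (y axis, from 0) of each receptor in the 3 DMSO libraries (blue) and the 3 NMS-873 libraries (orange), with the mean ± SD beside them in black. The treatments separate for RTN3, FAM134A, ATL3 and TEX264 and overlap for the other 4, and TEX264 shows the widest gap, from 439 ± 18.6 to 329 ± 27.2.

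**Figure D2:**
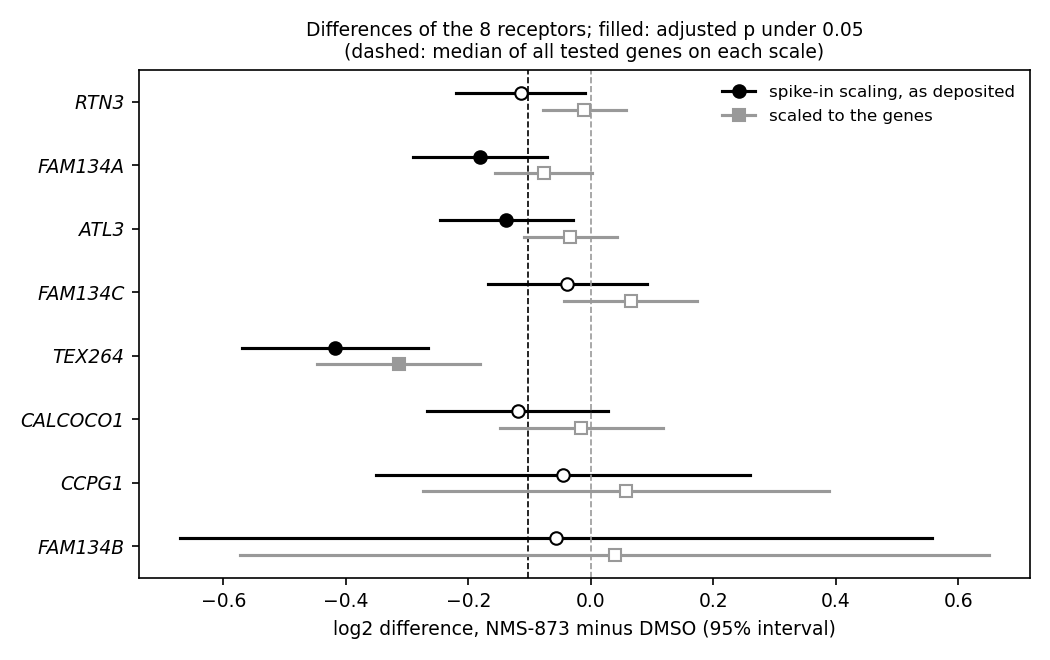
Log2 differences between NMS-873 and DMSO (x axis) with 95% intervals for the 8 receptors, on the deposited spike-in scale (black circles) and scaled to the genes (grey squares). Symbols are filled where the adjusted p was under 0.05, and the dashed lines mark the median gene, at -0.10 and 0.00; TEX264 is filled on both scales.

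Compared per transcript length, the receptors spanned a 180.2-fold range with DMSO. RTN3 was highest at 25.7 ± 0.532 FPKM (mean ± SD, n = 3 libraries, as for the other levels), then FAM134A at 15.4 ± 0.315, ATL3 at 12.7 ± 0.232, FAM134C at 5.94 ± 0.104, TEX264 at 3.53 ± 0.149, CALCOCO1 at 3.21 ± 0.113, CCPG1 at 0.345 ± 0.0728 and FAM134B at 0.143 ± 0.0207. No 2 neighbours in this order overlapped among the DMSO libraries. At the exonic lengths behind the deposited FPKM, TEX264 and CALCOCO1 changed places with NMS-873. TEX264 was at 2.65 ± 0.219 FPKM and CALCOCO1 at 2.95 ± 0.205, with ranges that overlapped. Within single libraries the ratio of TEX264 to CALCOCO1 was 1.05, 1.12 and 1.14 with DMSO and 0.806, 0.953 and 0.935 with NMS-873, above 1 in every DMSO library and below 1 in every NMS-873 library. This pair was chosen after the values were seen. The order of the 2 genes, unlike the fall in their ratio, depends on the exonic length of CALCOCO1. The FPKM used 6296 bases for it, and GENCODE 29 gives 8898. With the same reads, the longer length would raise every ratio alike. Whether TEX264 falls below CALCOCO1 at that length was not tested.

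**Figure D3:**
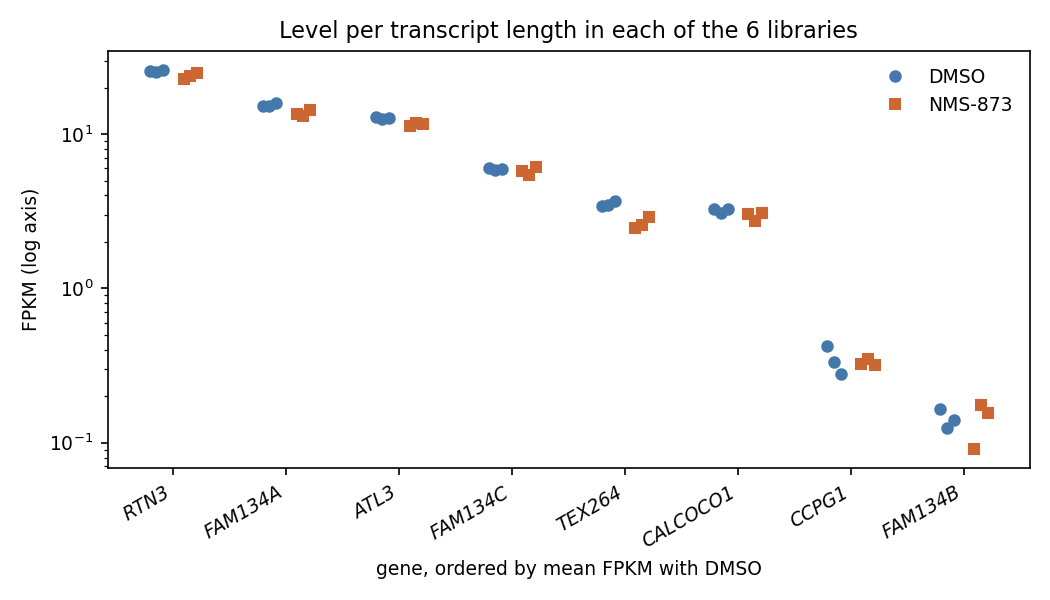
FPKM of each receptor (log axis) in the DMSO libraries (blue circles) and the NMS-873 libraries (orange squares), ordered by the mean with DMSO. The levels fall from 25.7 FPKM for RTN3 to 0.143 for FAM134B. TEX264 drops below CALCOCO1 with NMS-873 at the exonic lengths behind the deposited FPKM.

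The make-up of the receptor pool was compared as each member's share of the summed FPKM of the 8, which no library scaling changes. The sum itself, on the spike-in scale, was 67.3, 65.7 and 67.9 FPKM with DMSO and 59.2, 59.8 and 63.2 with NMS-873. TEX264 made up 5.11%, 5.25% and 5.46% of it with DMSO and 4.15%, 4.33% and 4.57% with NMS-873, and its groups did not overlap. FAM134C took 8.87% ± 0.163 with DMSO and 9.52% ± 0.347 with NMS-873, also without overlap. RTN3, the largest part, was at 38.4% ± 0.144 and 39.1% ± 0.658, and CCPG1, as counted, at 0.515% ± 0.109 and 0.543% ± 0.0384. The exact two-sided permutation test of 3 against 3 libraries cannot go below 0.1, and TEX264 and FAM134C reached that value (0.4 after Benjamini-Hochberg adjustment over the 8 shares); the other 6 shares had p = 0.2 to 0.9.

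Transcripts of the ATG8 proteins that receptors bind rose or did not pass the test. Beside this and the following lists, 14.9% of all genes tested were called higher and 33.0% lower in limma. With gene-based factors these shares were 25.3% and 20.8%. Of 7 genes of the family 4 reached the count minimum, of which 2 rose and 0 fell in limma, also at an unadjusted p under 0.05 (median log2 difference 0.29); with gene-based factors 3 were higher. MAP1LC3B, which encodes LC3B, went from 2320 ± 129 to 4015 ± 114 normalised counts, a 1.73-fold rise (adjusted p = 5.10e-34 in limma), and GABARAPL1 from 509 ± 7.07 to 728 ± 65.7, a 1.42-fold rise. GABARAPL2 and GABARAP were at log2 differences of 0.02 and 0.08 and did not pass. Set against the summed FPKM of the 8 receptors, MAP1LC3B was at ratios of 0.286, 0.296 and 0.313 with DMSO and of 0.574, 0.569 and 0.565 with NMS-873, a comparison chosen after the values were seen.

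Of 21 genes that start autophagy and form the phagophore, the membrane that closes around cargo, 9 rose and 1 fell, with a median log2 difference of 0.14. TMEM41B, an ER lipid scramblase needed for phagophore growth, rose 2.88-fold, from 674 ± 20.2 to 1944 ± 97.2 normalised counts. WIPI1, which reads the phagophore's lipid signal, rose 2.07-fold, and NRBF2, a subunit of the autophagy lipid kinase, rose 1.52-fold. RB1CC1, which encodes the scaffold FIP200 that CCPG1 binds, rose 1.44-fold, and the kinase gene ULK1 rose 1.43-fold; the single gene that fell was PIK3R4, which encodes the kinase complex subunit VPS15, by 1.17-fold. These last 3 were named after their values were seen. Scaled to the genes, 15 were higher and 1 lower. Of 10 genes of the machinery that attaches ATG8 proteins to lipid or prepares them for it, 2 rose and 2 fell. The median log2 difference was -0.05. ATG12 and ATG4D rose by 0.22 and 0.27 on the log2 scale. ATG4C and ATG10 fell by 0.35 and 0.27, and ATG10 was named after its value was seen. Of the 10, 1 was lower with gene-based factors or without DMSO replicate 3, and 1 was higher without DMSO replicate 2.

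Of the cargo receptors for targets other than the ER, 13 of 14 listed genes were tested. In this list 6 rose and 1 fell, with a median log2 difference of 0.09; with a library left out 4 to 7 were higher. CALCOCO2, which encodes NDP52, the paralogue of CALCOCO1 that handles bacteria and mitochondria, rose 1.3-fold, and SQSTM1, which encodes the ubiquitin receptor p62, rose 1.19-fold. FUNDC1, a receptor for mitochondria, fell 1.26-fold. The paralogues can be read side by side, although CALCOCO2 was named for its low adjusted p and CALCOCO1 itself was not called. CALCOCO1 stood at 0.417 to 0.447 times the FPKM of CALCOCO2 with DMSO and at 0.287 to 0.317 times with NMS-873.

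Of 16 genes that shape the ER membrane, 1 rose and 4 fell, with a median log2 difference of -0.08, near that of all genes. With gene-based factors 5 were higher and 3 lower. ATL1, a paralogue of ATL3, fell 1.44-fold, from 193 ± 15.6 to 135 ± 18.2 normalised counts. ARL6IP1, a hairpin protein of the ER tubules, fell 1.2-fold, as did REEP5, a curvature protein, also 1.2-fold. The 1 gene that rose was RTN4, the paralogue of RTN3, at 1.1-fold (adjusted p = 0.0415 in limma; named after its value was seen). This call was lost without DMSO replicate 1 or 2, without NMS-873 replicate 2 or 3, and without the count minimum. RTN3 stood at 0.347 to 0.351 times the FPKM of RTN4 with DMSO and at 0.29 to 0.3 times with NMS-873, so these ranges did not overlap.

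Among 9 genes of other ER-phagy factors, SEC62 and the UFM1 system that tags ER-bound ribosomes, 1 rose and 2 fell, with a median log2 difference of 0.00. Gene-based and TMM factors each gave 3 higher and 1 lower. With NMS-873 replicate 2 left out, or either of DMSO replicates 1 and 3, only 1 was lower, without NMS-873 replicate 3 there were 3, and without NMS-873 replicate 1 there were 2 higher. UFM1, the modifier itself, rose 1.37-fold, from 1333 ± 46.1 to 1824 ± 97.7 normalised counts. UFC1, its conjugating enzyme, fell 1.14-fold although its groups overlapped, and UFSP1, a UFM1 protease, fell from 18.8 ± 2.86 to 9.75 ± 2.38 normalised counts, a low level. SEC62, a receptor of recovery from ER stress named after its value was seen, was at a log2 difference of 0.07 (adjusted p = 0.317 in limma). Of 12 known partners and regulators of the receptors 2 rose and 2 fell, with a median log2 difference of 0.03. Gene-based factors gave 5 higher and 1 lower, TMM factors 6 and 1, and leaving out NMS-873 replicate 1 gave 4 and 2. CANX, which encodes calnexin, the co-receptor through which FAM134B recognises misfolded procollagen, rose 1.27-fold. CSNK2A1, a subunit of the kinase CK2 that phosphorylates TEX264, rose by 0.21 on the log2 scale, and PGRMC1, a partner of RTN3, fell 1.19-fold. TFEB and TFE3, the factors of the CLEAR element, were at log2 differences of -0.22 and -0.07 and did not pass (adjusted p = 0.0817 and 0.318 in limma; named after their values were seen).

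**Figure D4:**
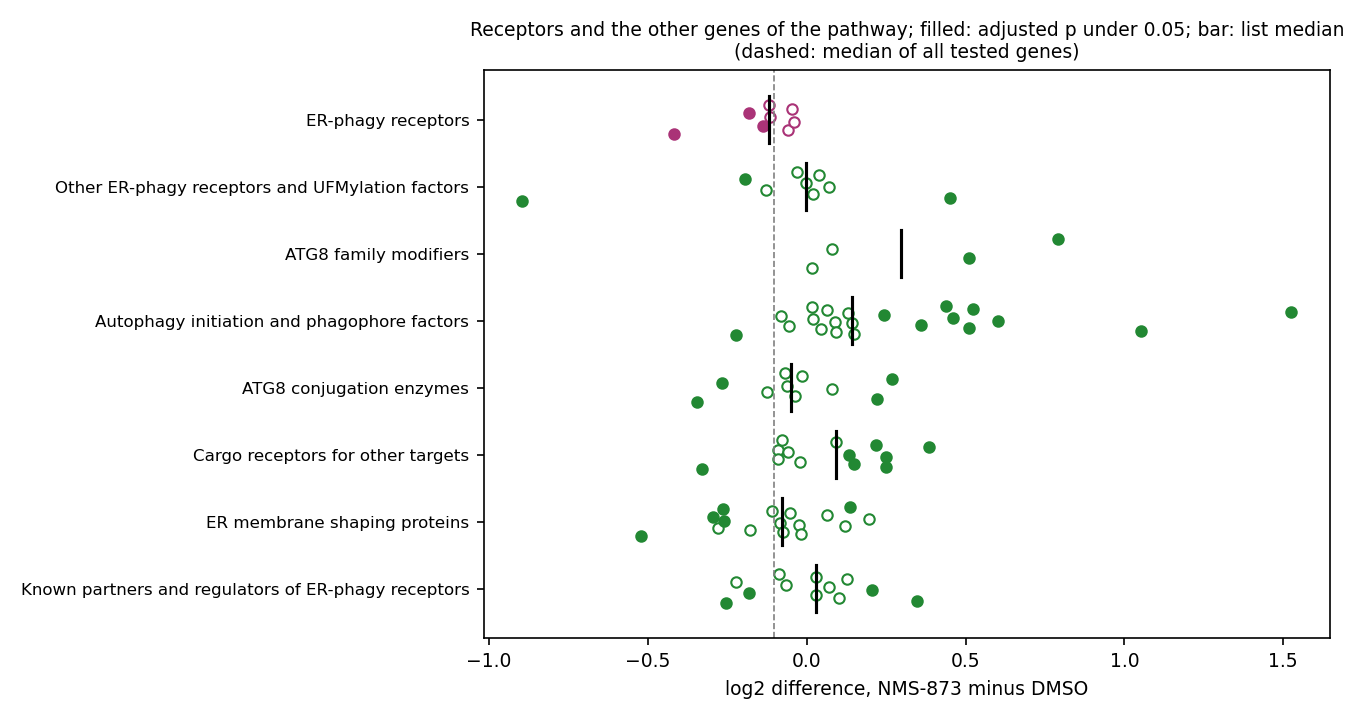
Log2 differences between NMS-873 and DMSO (x axis) of every tested gene in the receptor list (purple) and in the 7 other lists of the pathway (green), filled where the adjusted p was under 0.05, with the list median as a black bar and the median of all genes dashed. The 8 receptors lie between -0.42 and -0.04, while the phagophore list reaches 1.53 with TMEM41B.

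In all, 85 of the 89 other genes of the pathway were tested, and 23 rose and 12 fell, with a median log2 difference of 0.03. Of all genes tested, 14.9% were called higher and 33.0% lower. Gene-based factors gave 40 higher and 8 lower, beside 25.3% and 20.8% of all genes. TMM factors gave 41 higher and 7 lower, beside 26.3% and 19.8%. An adjusted p under 0.05 stands beside 3 receptors in the authors' deposited table, TEX264 (log2 fold change -0.42), FAM134A (-0.18) and ATL3 (-0.14), and not beside the other 5. That comparison used the same 6 libraries. At this threshold it placed 3644 genes lower and 1857 higher. Of the 57820 annotated genes 27709 had a read. How many genes that comparison tested was not counted here, so no share is set beside the 3 of 8.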

How the data were processed

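RNA from 6 libraries was analysed from 1 table. Per the file headers and the values, the deposited sample columns hold FPKM; the table also holds the authors' mean normalised count (a signal scaled by size factors), log2 fold change and adjusted p-value. Per the submitters' processing notes, featureCounts 1.5.1, DESeq2 1.16.1 and build hg19 were used; aligner and strand setting are not given in the sources used here. The expected unit was normalised counts, so these were rebuilt from FPKM and the mean column, and the values times the implied size factors were within 0.001 of whole reads in 100% of cases. The size factors equal those of the 92 spike-in rows.

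limma 3.58.1 in R 4.3.3 was run on log2(normalised count + 1) of 14889 genes with a mean of at least 10, with a variance trend, two-sided, Benjamini-Hochberg adjusted over all genes. The log2 scale with pseudocount 1 understates changes of low genes. Within treatments, reads differed beyond sampling noise (chi-square per degree of freedom 1.47 to 3.33 between DMSO replicates). NMS-873 replicate 1 stood apart, at 6.84 against replicate 2 and 7.27 against replicate 3. NMS-873 replicates 2 and 3 were at 1.72. The method was tested on simulated data. Members and lists were chosen with earlier results of these data known. Named were all members, the 3 lowest adjusted p among calls per list, overlapping genes and, as reference, HSPA5 and DDIT3; 0 members reached the 0.5 log2 change set for naming genes of like pattern. STBD1 and PECAM1 were not matched to a row and were not analysed here, and 1 marker gene is not reported here.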

Additional observations from a re-analysis of the deposited data

How the results depend on the processing

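No receptor was called higher under any alternative of scaling, pseudocount, count minimum, variance trend or test (voom, replicate block), or with any library left out. The number called lower, 3 as reported, was 1 with gene-based factors and 1 with TMM factors, beside 20.8% and 19.8% of all genes. It was 4 with equal totals, beside 35.7%. Without the count minimum it was 2, beside 4622 of 27709 genes, and without the variance trend 2, beside 3706 of 14889. With a library left out it was 1 to 3 (1 without NMS-873 replicate 2), beside 4005 to 4957 of 14889 genes. TEX264 was called in each, with adjusted p = 0.0074 in limma without the variance trend and 0.0021 in limma on log2 FPKM. ATL3 was also not called without the count minimum (adjusted p = 0.0518) or the variance trend (0.0665), and RTN3 was called with equal totals (0.00923) and without NMS-873 replicate 3 (0.0378), all in limma. Pathway genes called higher numbered 40 with gene-based factors and 41 with TMM factors, beside 25.3% and 26.3% of all genes. Those called lower numbered 7 with TMM factors, beside 19.8%. With a library left out 19 to 28 were higher and 9 to 16 lower, beside 1870 to 2406 and 4005 to 4957 of 14889 genes.

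The log2 differences of FAM134B, FAM134C and CCPG1 changed sign under some settings; those of the other 5 receptors, CALCOCO1 and RTN3 included, stayed below 0. With gene-based and TMM factors, log2 differences became 0.039 and 0.0475 for FAM134B, 0.0651 and 0.0743 for FAM134C, and 0.0577 and 0.0667 for CCPG1. With a library left out they ran from -0.235 to 0.211 for FAM134B, from -0.0789 to 0.00204 for FAM134C and from -0.184 to 0.111 for CCPG1. In percentage points, the shares of summed FPKM then differed by -0.0237 to 0.085 for CCPG1, by -0.0135 to 0.0578 for FAM134B, by -0.274 to 0.389 for ATL3 and by -0.069 to 0.237 for CALCOCO1. The cause was not tested.

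With the replicate block, 0 receptors were higher and 4 lower (15.8% and 35.3% of all genes), RTN3 being the added one (adjusted p = 0.0333 in limma). Same-numbered libraries did not deviate together in every pair (correlations 0.128, -0.0509 and 0.145). DMSO replicates 1 and 3 correlated best with their own number, and DMSO replicate 2 did not. Correlations this weak and mixed cannot decide whether the libraries were paired. Counting error limits FAM134B and CCPG1, at 9 to 18 and 54 to 79 reads a library.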
